A study of Mus musculus with 16 samples.

Results

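Transcripts of 10 genes of macrophages and the complement system were followed through the early mouse gonad: the receptors Csf1r and Cx3cr1, the signalling adaptors Tyrobp and Fcer1g, the complement genes C1qa, C1qb and C1qc, and the uptake and lysosome genes Mrc1, Cd68 and Ctss. They were chosen by name, as every probe set (a group of short probes for one transcript) annotated to these genes alone, which gave 15 of the 45101 probe sets on the array. A total of 14 of the 15 passed the filter on low values, and all 10 genes were among the 12336 genes tested.

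Macrophages settle in the fetal gonad before and during sex determination, where they take up dying cells and debris and associate with growing vessels. CSF1R is the receptor for CSF1 and IL34, on which most tissue macrophages depend, and TYROBP and FCER1G are small membrane adaptors that pass signals from many myeloid receptors into the cell. The products of C1qa, C1qb and C1qc join into C1q, the recognition molecule that starts the classical complement pathway, and tissue macrophages are its main source.

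The arrays were Affymetrix Mouse430_2, and each was hybridised with RNA from embryonic gonad of wild-type or Wnt4 knock-out mice. Wnt4 encodes a secreted signal with a known part in ovary development, and the study asked how its loss alters gonads of either sex. The 16 samples formed 8 groups of 2 arrays, combining sex (ovary or testis), genotype (wild-type, WT, or knock-out, KO) and embryonic day (12.5, written E12.5, or 14.5, written E14.5). Male samples carry the word ovary in their titles but testis in their source names, and testis was used here. Replicates are described as biological, but the number of embryos behind an array was not given, so a p-value speaks only of the variation from array to array. The labels name neither the mouse strain nor the part of Wnt4 that was deleted.

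Mean intensity lay between 269.6 and 285 per array, and the number of arrays limits the precision. Sertoli cell genes had summed intensities of 4618 to 6907 in testis arrays and 448 to 2295 in ovary arrays, and this sorts the arrays as their source names do. RNA of the opposite sex, estimated from Xist or from Eif2s3y, Kdm5d and Uty, made up 16.4% to 22.7% of 5 arrays, which were WT ovary E12.5 replicate 1, KO ovary E12.5 replicate 2, WT ovary E14.5 replicate 2, WT testis E14.5 replicate 2 and KO testis E14.5 replicate 2. The ratio of 3′ to 5′ signal of the actin and Gapdh controls, a sign of RNA quality, was 2.27 in KO ovary E12.5 replicate 1, 1.76 in WT ovary E12.5 replicate 2 and in KO testis E12.5 replicate 1, and 1.06 to 1.36 in the other 13 arrays. The WT testis E12.5 arrays were almost alike, with an SD of 0.14 for their log2 differences over genes, against 0.33 to 0.59 in the other 7 groups. Wnt4 had 351 and 302 in KO ovary E14.5 and 1138 and 1151 in WT ovary E14.5, but at E12.5 it had 839 and 520 in KO ovary and 844 and 1822 in WT ovary, so that KO ovary E12.5 replicate 1 was level with a WT array. In testis it had 413 and 231 in KO and 502 and 473 in WT at E12.5, and 277 and 371 in KO and 753 and 512 in WT at E14.5. Its probe sets do not check the genotype while the deleted part is not known.

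The sequences before the transcription start are shown for the complement genes C1qb and C1qc, which lie next to each other and to C1qa on chromosome 4, for Ctss, which changed with stage on average, and for Mrc1, which passed for stage in WT testis alone. They are 250 bases each from RefSeq on build GRCm38.p6, written in the direction of the gene. Capitals mark GAGGAA or its reverse complement TTCCTC, the core of the site of the myeloid transcription factor PU.1.
C1qb, chr4:136886201-136886450, minus strand: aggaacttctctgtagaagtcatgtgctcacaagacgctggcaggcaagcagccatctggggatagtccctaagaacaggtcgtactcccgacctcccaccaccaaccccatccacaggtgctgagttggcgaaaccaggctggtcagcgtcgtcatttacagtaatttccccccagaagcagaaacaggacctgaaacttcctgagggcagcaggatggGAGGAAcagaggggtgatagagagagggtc
C1qc, chr4:136892915-136893164, minus strand: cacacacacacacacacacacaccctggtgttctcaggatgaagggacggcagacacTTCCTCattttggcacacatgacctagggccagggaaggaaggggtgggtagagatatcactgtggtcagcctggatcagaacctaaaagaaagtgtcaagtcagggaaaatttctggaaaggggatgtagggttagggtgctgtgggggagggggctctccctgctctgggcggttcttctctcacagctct
Mrc1, chr2:14229164-14229413, plus strand: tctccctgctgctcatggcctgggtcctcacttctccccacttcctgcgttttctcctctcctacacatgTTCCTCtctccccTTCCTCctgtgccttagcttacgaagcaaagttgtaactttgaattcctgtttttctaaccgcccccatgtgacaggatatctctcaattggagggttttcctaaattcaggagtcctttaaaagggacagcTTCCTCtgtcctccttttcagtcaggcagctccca
Ctss, chr3:95526536-95526785, plus strand: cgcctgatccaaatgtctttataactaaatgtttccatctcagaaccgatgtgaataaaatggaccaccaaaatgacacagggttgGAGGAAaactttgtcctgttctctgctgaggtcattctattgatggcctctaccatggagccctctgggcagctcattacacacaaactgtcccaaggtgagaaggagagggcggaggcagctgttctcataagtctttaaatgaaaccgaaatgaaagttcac
The motif began 30 bases before the start in C1qb, 193 bases before it in C1qc, 164 before it in Ctss, and 180, 167 and 35 before it in Mrc1. Sequences of 7 of the 10 genes were looked at, and 5 of these 7 held the motif on either strand, Cd68 being the fifth at 225 bases, while Fcer1g and Cx3cr1 did not hold it. Over all 32851 such RefSeq sequences 23.3% held it. A match is a run of letters and no evidence of binding. Csf1r, C1qa and Tyrobp are without a printed sequence here.

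Intensity placed these genes in the middle to upper range of the array. C1qb and Csf1r were the brightest, at mean percentiles of 84.2 and 82.3 among the probe sets of an array, followed by Mrc1 at 81.8, Ctss at 76.6 and Tyrobp at 72.8. C1qa, Fcer1g, Cx3cr1, C1qc and Cd68 were dimmer, at 67.5, 66.0, 60.7, 57.5 and 56.1. These ranks describe probe sets, and probes differ in how strongly they bind, so they do not order the genes by transcript number. In tissue RNA, fewer macrophages and less RNA per macrophage cannot be told apart.

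**Figure D1:**
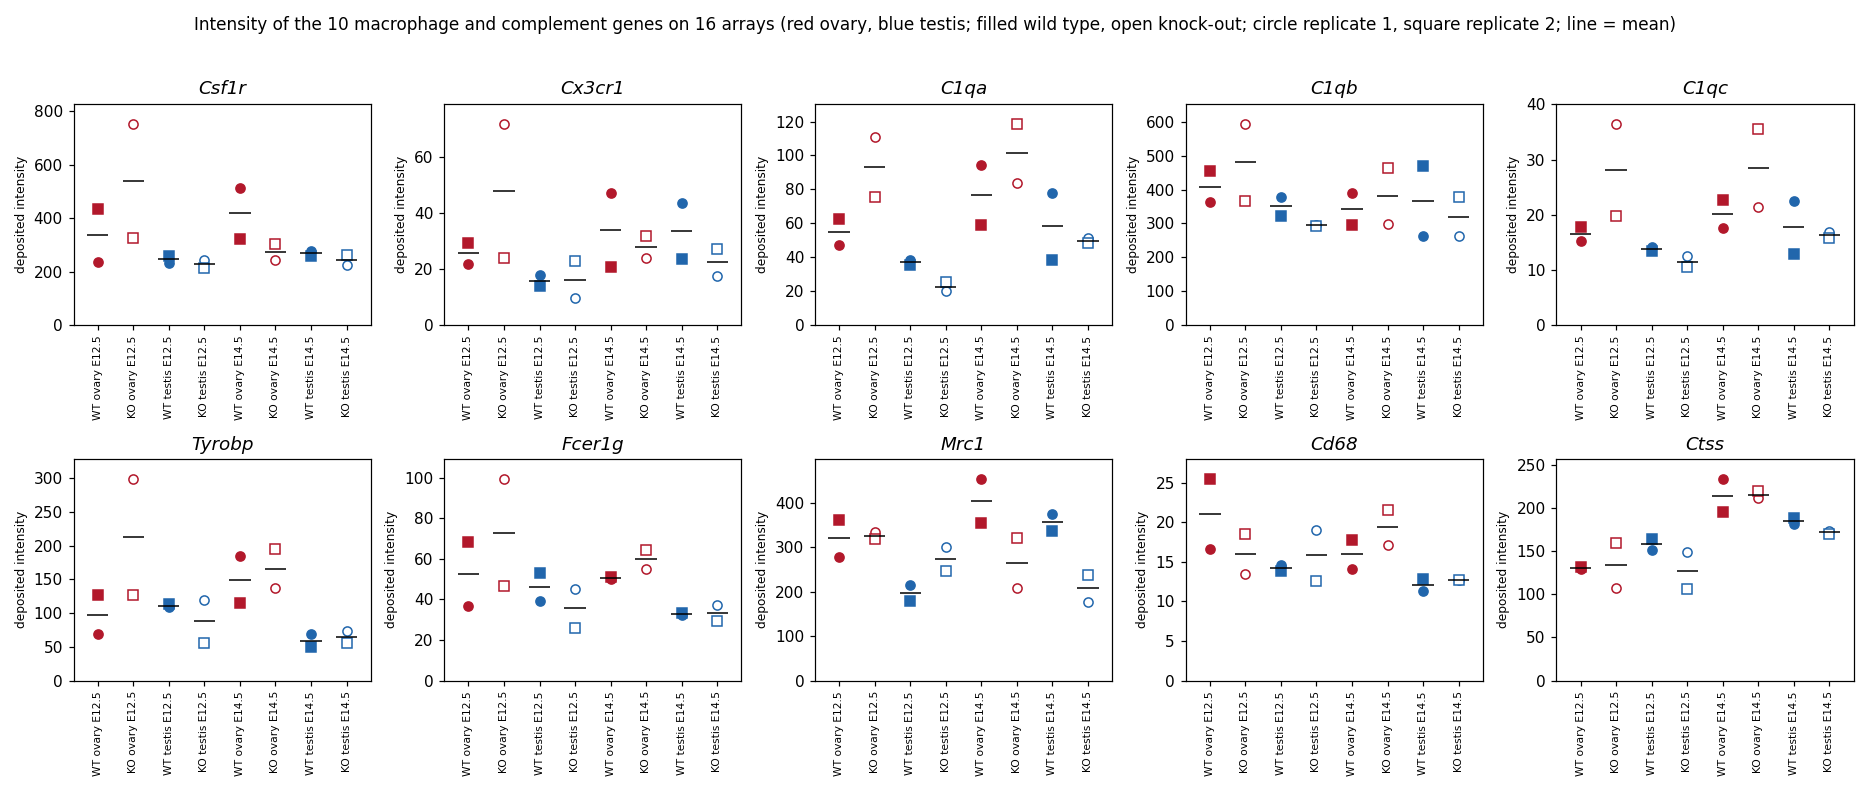
Deposited intensity (linear axis from 0) of each of the 10 genes on the 16 arrays, with a circle or square per array, a line for the group mean, red for ovary, blue for testis, filled for wild type and open for knock-out. The testis arrays of C1qa lie between 19.8 and 78.1 and the ovary arrays between 46.9 and 119. By the brightest probe set of each gene, KO ovary E12.5 replicate 1 is the highest array for 6 of the 10 genes.

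The clearest difference lay between the sexes, with C1qa, C1qc and Tyrobp lower in testis. Averaged with equal weight over both genotypes and both stages, C1qa, C1qc and Tyrobp fell in testis against ovary, which is 3 of 10 genes, where 11.2% of all genes tested were called in either direction and 5.87% as lower (limma, Benjamini-Hochberg adjusted p under 0.05). No gene of the 10 was called higher. All 10 had log2 changes below 0, as did 56.9% of all genes, and 8 had an unadjusted p under 0.05, as did 27% of all genes. The median log2 change of the 10 was -0.52, beside -0.04 over all genes.

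C1qa, the A chain of C1q, had intensities of 46.9 and 62.7 in WT ovary E12.5, 110.6 and 75.4 in KO ovary E12.5, 38.4 and 35.6 in WT testis E12.5, and 19.8 and 25.5 in KO testis E12.5. At E14.5 it had 94.2 and 59.3 in WT ovary, 83.7 and 119 in KO ovary, 78.1 and 38.4 in WT testis, and 51.4 and 48.3 in KO testis. Testis was lower at both stages in both genotypes, and only in the wild type at E14.5 did the arrays of both sexes overlap. The mean log2 difference of testis from ovary was -0.93 (SE 0.17, 95% interval -1.30 to -0.56, limma adjusted p = 0.00375), with differences of -0.42 to -1.85 in the 4 pairs of groups. This call held in all 32 other settings, with log2 changes of -1.05 to -0.76 and adjusted p of at most 0.043. By group mean C1qa ran from 101.2 ± 24.8 (SD, n = 2) in KO ovary E14.5 through 93.0 ± 24.9 in KO ovary E12.5, 76.7 ± 24.7 in WT ovary E14.5, 58.3 ± 28.1 in WT testis E14.5, 54.8 ± 11.1 in WT ovary E12.5 and 49.9 ± 2.2 in KO testis E14.5. The lowest were WT testis E12.5, at 37.0 ± 2.0, and KO testis E12.5, at 22.7 ± 4.0. The arrays of neighbours in this order overlapped, except that each of these lowest groups lay below the group before it.

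C1qc, the C chain, was dimmer, at 15.2 and 17.8 in WT ovary E12.5, 36.5 and 19.8 in KO ovary E12.5, 14.2 and 13.4 in WT testis E12.5, and 12.5 and 10.5 in KO testis E12.5. Its E14.5 arrays gave 17.7 and 22.7 in WT ovary, 21.4 and 35.5 in KO ovary, 22.5 and 12.9 in WT testis, and 16.9 and 15.7 in KO testis. Only the WT testis E14.5 arrays reached into the range of the ovary arrays of their own genotype and stage. The mean log2 difference was -0.51 (SE 0.14, 95% interval -0.82 to -0.20, limma adjusted p = 0.0376) and was below 0 in 4 of 4 pairs of groups. The call was lost in 14 of 32 settings, 11 of which left out a single array, with log2 changes of -0.33 to -0.60 over all 32 and an adjusted p of at most 0.135.

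C1qb, the B chain, ran from 297 to 595 (median 379) on ovary arrays and from 263 to 469 (median 309) on testis arrays. Its brightest probe set, which represents the gene in the tests, did not pass the test, with a log2 difference of -0.26 (SE 0.16, limma adjusted p = 0.31). The 3 probe sets of C1qb did not run together. The probe set annotated with an mRNA accession correlated with the brightest at r = 0.08 over the 16 arrays (log2 values), while the other pair, both of a type whose probes can bind other transcripts, correlated at 0.84. By the probe set with the mRNA accession the mean difference of testis from ovary was -0.42 (SE 0.14, limma adjusted p over 25620 probe sets = 0.118).

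Tyrobp, the adaptor also called DAP12, had 68.9 and 127 in WT ovary E12.5, 298 and 126 in KO ovary E12.5, 108 and 114 in WT testis E12.5, and 119.8 and 56.1 in KO testis E12.5. At E14.5 its arrays read 184 and 114 in WT ovary, 137 and 195 in KO ovary, 68.3 and 49.0 in WT testis, and 73.5 and 56.3 in KO testis. At E14.5 the testis arrays were below all ovary arrays of that stage, while in wild type at E12.5 they lay within the range of the ovary arrays. The mean log2 difference of testis from ovary was -0.88 (SE 0.22, 95% interval -1.37 to -0.40, limma adjusted p = 0.0233), below 0 in 3 of 4 pairs of groups, and 0.24 in the fourth, WT at E12.5. The call was lost in 11 of 32 settings, among them the one without KO ovary E12.5 replicate 1, at -0.73 with an adjusted p of 0.0543. Fcer1g, the gamma chain shared by Fc receptors, ran from 36.9 to 99.4 (median 53.1) on ovary arrays and from 26.2 to 53.0 (median 35.2) on testis arrays, a log2 difference of -0.60 that did not pass (SE 0.18, limma adjusted p = 0.0533).

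Csf1r read 235 and 437 in WT ovary E12.5, 754 and 326 in KO ovary E12.5, 234 and 259.5 in WT testis E12.5, and 243 and 213 in KO testis E12.5. At E14.5 it read 515 and 323 in WT ovary, 242 and 303 in KO ovary, 279 and 258 in WT testis, and 224 and 264 in KO testis. The 8 testis arrays lay between 213 and 279, and the ovary arrays ran from inside this band to 754. The other probe sets of Csf1r were dimmer, and the brightest correlated with them at r = 0.86 and, for the one with an mRNA accession (27.7 to 57.5 over the 16 arrays), at 0.56. For the brightest probe set the mean log2 difference of testis from ovary was -0.56 (SE 0.18, limma adjusted p = 0.0679), below 0 in 4 of 4 pairs of groups, and did not pass. By group mean the one with an mRNA accession was higher in testis in WT E14.5, at 44.0 against 43.2. The remaining one was higher in testis in KO E14.5, at 54.0 against 45.6, and each was lower in testis in its other pairs of groups. Cx3cr1, the receptor for fractalkine (CX3CL1), ran from 20.7 to 72.0 (median 26.6) on ovary arrays and from 9.63 to 43.6 (median 20.3) on testis arrays, and its difference of -0.52 did not pass either (SE 0.24, limma adjusted p = 0.182). Its second probe set stayed at 3.37 to 7.36 on all 16 arrays, under the filter.

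Among the uptake genes, the mannose receptor gene Mrc1 had a mean log2 difference of -0.36 (SE 0.13, limma adjusted p = 0.089), from 208 to 453 (median 327) on ovary arrays and from 178 to 375 (median 242) on testis arrays. Cd68, a membrane protein of late endosomes and lysosomes, was near the lower end of the tested range, at 13.5 to 25.4 (median 17.4) in ovary and 11.3 to 19.1 (median 12.8) in testis, a difference of -0.31 (SE 0.11, limma adjusted p = 0.102). Ctss, the lysosomal protease cathepsin S, differed by -0.08 (SE 0.12, 95% interval -0.34 to 0.18, limma adjusted p = 0.712). The ranges of Ctss in the sexes overlapped, with 108 to 234 in ovary and 106 to 189 in testis.

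**Figure D2:**
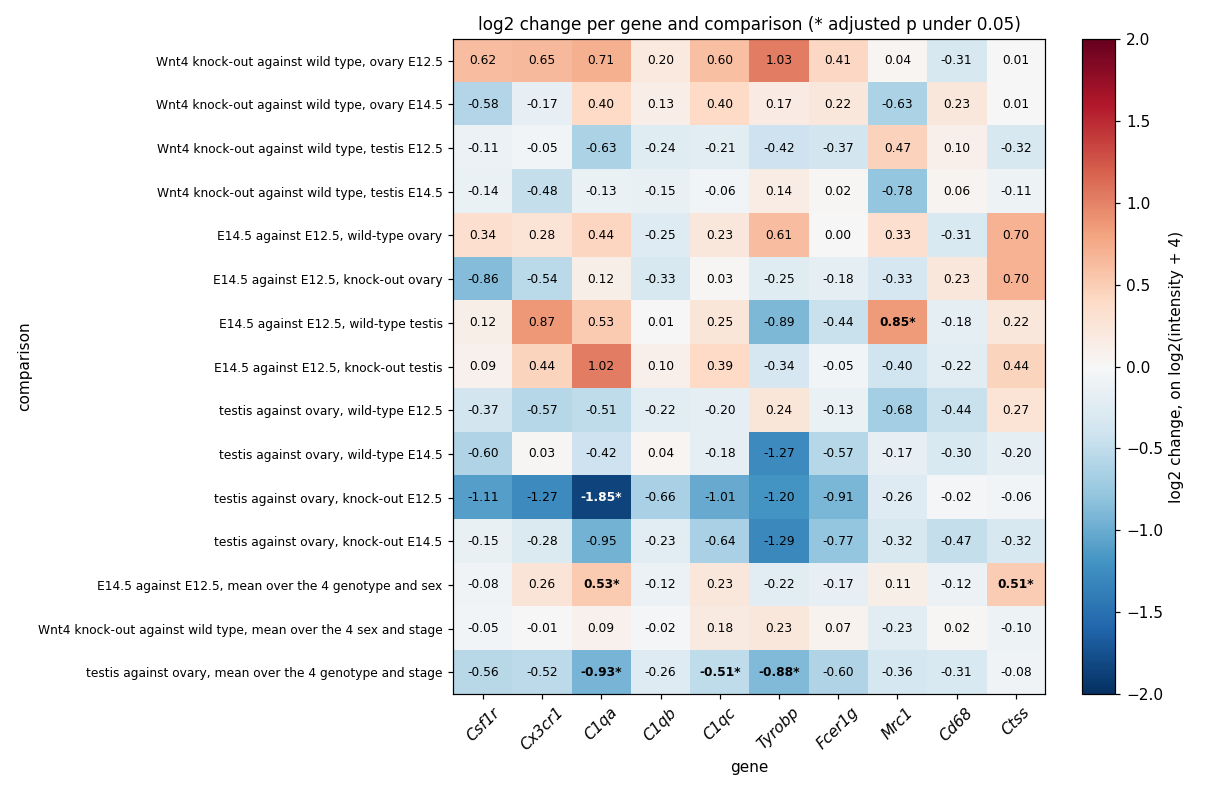
Log2 change of each gene (columns) in the 12 comparisons of 2 groups and the 3 averages over 4 combinations (rows), coloured from blue for lower to red for higher, on the scale of log2(intensity + 4), with a star where the adjusted p is under 0.05. Stars stand at C1qa, C1qc and Tyrobp for the average sex difference, at C1qa for the sex difference in knock-out E12.5, at C1qa and Ctss for the average stage difference and at Mrc1 for the stage difference in WT testis.

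Within single genotypes and stages 1 of these sex differences passed. C1qa was lower in KO testis than in KO ovary at E12.5, with a log2 difference of -1.85 (SE 0.35, 95% interval -2.59 to -1.10, limma adjusted p = 0.0215), in a comparison that called 1.14% of all genes. There 6 of the 10 genes had an unadjusted p under 0.05, beside 19.2% of all genes, and the median log2 change was -0.96, beside -0.05 over all genes. Without KO ovary E12.5 replicate 1 the count was 1 of 10, C1qa, and the median was -0.45, and without the 3 arrays of high 3′ to 5′ ratio the median was -0.59. The C1qa call was lost without KO ovary E12.5 replicate 1 (-1.58, limma adjusted p = 0.27), without KO testis E12.5 replicate 1 (-1.69, adjusted p = 0.128), without KO testis E12.5 replicate 2 (-2.0, adjusted p = 0.0876) and without the 3 arrays of high 3′ to 5′ ratio (-1.43, adjusted p = 0.373). In the WT at E12.5, the WT at E14.5 and the KO at E14.5 the test called 0 of 10 genes, with 1, 1 and 3 of them at an unadjusted p under 0.05, where limma called 0.608%, 3.83% and 5.33% of all genes. Their medians were -0.29, -0.25 and -0.40, beside -0.11, -0.02 and 0.02 over all genes.

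The summed intensity of 12 endothelial genes was 2564 to 4216 on ovary arrays and 1999 to 2960 on testis arrays. Kdr, the VEGF receptor of endothelium, fell in testis by 0.67 on the log2 scale (limma adjusted p = 0.0058), and Cldn5, a tight junction protein, fell by 0.47 (adjusted p = 0.0421), while the other 10 endothelial genes did not pass, so that 2 of 12 were called beside 11.2% of all genes. Opposite-sex RNA in 5 arrays and the 3′ to 5′ ratio also differed between arrays. The part of any of these in the lower levels of C1qa, C1qc and Tyrobp was not tested. With the ratio or the opposite-sex estimate added to the fit, 5 of the 10 genes were called instead of 3. C1qa was called in both of these fits. Without the 3 arrays of high ratio, the log2 differences were -0.78 for C1qa, -0.76 for Tyrobp and -0.41 for C1qc. The median of the 10 genes was -0.34 without those 3 arrays, and all 10 values stayed below 0 in each of 32 settings.

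Between the stages Ctss rose at E14.5, and C1qa rose to a like degree. Averaged over both sexes and genotypes these were 2 of 10 genes, where 26.5% of all genes were called in either direction and 13% as higher. The median log2 change of the 10 was 0.02, beside -0.03 over all genes, and 5 of 10 values were above 0.

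Ctss had 129.9 and 131 in WT ovary E12.5, 108 and 160.0 in KO ovary E12.5, 152 and 165 in WT testis E12.5, and 149 and 106 in KO testis E12.5. At E14.5 it had 234 and 196 in WT ovary, 212 and 219.9 in KO ovary, 182 and 189 in WT testis, and 174 and 171 in KO testis. Every E14.5 array was above every E12.5 array. The mean log2 rise was 0.51 (SE 0.12, 95% interval 0.25 to 0.77, limma adjusted p = 0.00717), with 0.22 to 0.70 in the 4 pairs of groups, and the call held in all 32 other settings at 0.45 to 0.58. In order of group means the ovary at E14.5 stood first, at 216 ± 5.88 (SD, n = 2) in KO and 215 ± 27.1 in WT, which overlapped, followed by testis at E14.5, at 186 ± 5.23 in WT and 172 ± 2.18 in KO. The testis groups lay apart from the ovary groups and from each other at E14.5. The E12.5 groups lay between 158 ± 9.06 in WT testis and 128 ± 30.6 in KO testis, and neighbours among them overlapped.

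C1qa rose by a mean log2 change of 0.53 from E12.5 to E14.5 (SE 0.17, 95% interval 0.15 to 0.90, limma adjusted p = 0.0386), above 0 in 4 of 4 pairs of groups. Its arrays ran from 19.8 to 110.6 (median 42.7) at E12.5 and from 38.4 to 119 (median 68.7) at E14.5, so the stages overlapped. The call was lost in 16 of 32 settings, 10 of which left out a single array, with log2 changes of 0.41 to 0.65 over all 32 and an adjusted p of at most 0.093. C1qc had a mean change of 0.23 (SE 0.14, limma adjusted p = 0.264), above 0 in 4 of 4 pairs. For C1qb the probe sets differed. The one with an mRNA accession rose by 0.50 (SE 0.14, limma adjusted p over 25620 probe sets = 0.0246, 21.8% of probe sets called), from 57.8 to 129 at E12.5 to 94.4 to 196 at E14.5, while the brightest had -0.12 (SE 0.16, limma adjusted p = 0.615 over genes).

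**Figure D3:**
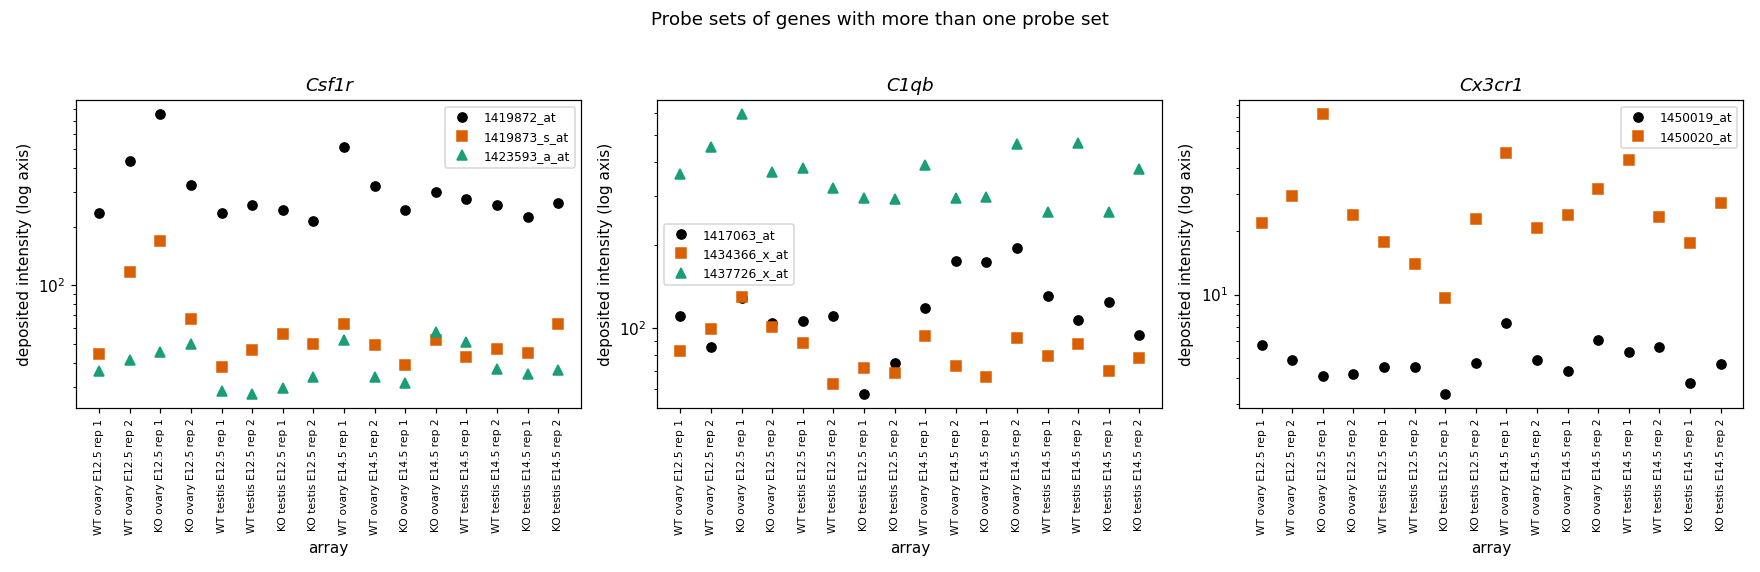
Deposited intensity (log axis) on the 16 arrays of each probe set of Csf1r, C1qb and Cx3cr1, a marker per array. The brightest probe set of C1qb (green triangles) peaks at 595 in KO ovary E12.5 replicate 1, the one with an mRNA accession (black circles) at 196 in KO ovary E14.5 replicate 2, and the dimmer probe set of Cx3cr1 (black circles) is at 7.36 or lower.

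Mrc1 passed in 1 of the 4 pairs of stages. In WT testis its E12.5 arrays read 215 and 178 and its E14.5 arrays 375 and 337, a log2 rise of 0.85 (SE 0.25, 95% interval 0.30 to 1.39, limma adjusted p = 0.0485), which is 1 of 10 genes where 10.6% of all genes were called. These groups did not overlap. The call was lost without any of the 4 arrays, at 0.98 and 0.71 without WT testis E12.5 replicate 1 and 2 (limma adjusted p = 0.14 and 0.312) and at 0.77 and 0.92 without WT testis E14.5 replicate 1 and 2 (adjusted p = 0.185 and 0.146). With the almost identical E12.5 arrays counted as 1, the adjusted p was 0.22, and with the replicate number as a block it was 0.0586. Over all 4 pairs of groups Mrc1 had a mean change of 0.11 (SE 0.13, limma adjusted p = 0.532), with 2 pairs above 0 and 2 below.

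The other stage comparisons called 0 of 10 genes, with 1 in WT ovary, 2 in KO ovary and 1 in KO testis at an unadjusted p under 0.05 (limma), where 4.36%, 13.8% and 4.04% of all genes were called. Csf1r, Cx3cr1, Tyrobp, Fcer1g and Cd68 had mean stage changes between -0.22 and 0.26, and none of these passed (limma adjusted p of 0.444 to 0.785). Erythroid genes moved strongly with stage, with summed intensities of 35282 to 43977 at E12.5 and 13582 to 24711 at E14.5. On average 7 of 8 fell, where 26.5% of all genes were called in either direction. Hbb-bh1, an embryonic beta globin, fell by 3.68 on the log2 scale (limma adjusted p = 2.51e-07). The part of this change of blood RNA in the stage differences of Ctss and C1qa was not tested.

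Knock-out of Wnt4 changed none of the 10 genes by the test in any sex or stage. In ovary E12.5, ovary E14.5, testis E12.5 and testis E14.5 limma called 0 of 10 genes each, where 0.292%, 0.543%, 0.0405% and 0.00811% of all genes were called, and 1, 1, 0 and 1 of the 10 had an unadjusted p under 0.05. The medians of the 10 were 0.51, 0.15, -0.22 and -0.12, beside 0.03, -0.02, 0.10 and 0.03 over all genes. Averaged over sexes and stages 0 of 10 were called, with 0 of 10 at an unadjusted p under 0.05 (limma), where 1.43% of all genes were called, and the median was 0.00. A missed threshold does not show that these genes did not differ.

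In ovary E12.5, 9 of 10 genes had values above 0 in the knock-out, as did 54.9% of all genes. Tyrobp had the largest difference, 1.03 (SE 0.45, 95% interval 0.06 to 1.99, limma adjusted p = 0.594), from 68.9 and 127 in WT to 298 and 126 in KO. C1qa followed with 0.71 (SE 0.35, 95% interval -0.03 to 1.46) and C1qc with 0.60 (SE 0.29, 95% interval -0.02 to 1.22), and for both genes the KO arrays lay above the WT arrays (limma adjusted p = 0.653 and 0.649). These values leaned on KO ovary E12.5 replicate 1, whose 3′ to 5′ ratio was 2.27, the highest of the 16 arrays. That array was the highest of all 16 for 6 of the 10 genes, beside 21.4% of all genes, and for 10 of 12 endothelial genes. Csf1r and C1qb are among the 6 by their brightest probe sets. Their probe sets with an mRNA accession peaked in KO ovary E14.5 replicate 2, at 57.5 and 196. Without KO ovary E12.5 replicate 1, 6 of 10 values were above 0 and the median was 0.01, with Tyrobp at 0.42, C1qa at 0.45 and C1qc at 0.22. Without all 3 arrays of high 3′ to 5′ ratio, which leaves 1 array on each side, 10 of 10 values were above 0 and the median was 0.30, with Tyrobp at 0.84, C1qa at 0.64 and C1qc at 0.31. In the estimate of opposite-sex RNA this array had 0% and its partner 17.7%, and the part of any of these properties in the values was not tested.

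Mrc1 had the smallest unadjusted p of the 10 in both E14.5 comparisons. It read 453 and 354 in WT ovary E14.5 and 208 and 320.3 in KO ovary E14.5, a log2 difference of -0.63 (SE 0.25, 95% interval -1.17 to -0.08, limma adjusted p = 0.671). In testis at E14.5 it read 375 and 337 in WT and 178 and 238 in KO, a difference of -0.78 (SE 0.25, 95% interval -1.32 to -0.23, limma adjusted p = 1). In both sexes the KO arrays lay below the WT arrays, and neither difference passed. At E12.5 the values were 0.04 in ovary and 0.47 in testis (SE 0.25 each, limma adjusted p = 0.979 and 0.52). For C1qa in testis E12.5, where the WT had 38.4 and 35.6 and the KO 19.8 and 25.5, the difference was -0.63 (SE 0.35, 95% interval -1.37 to 0.12, limma adjusted p = 0.528).

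The tests of differences between differences called 0 of 10 genes. The knock-out effect in ovary minus that in testis, where 0.113% of all genes were called at E12.5 and 0% at E14.5, had 2 and 0 of 10 at an unadjusted p under 0.05 (limma). The knock-out effect at E14.5 minus that at E12.5, with 0% called in ovary and 0.00811% in testis, had 1 in each sex. The stage change in testis minus that in ovary, with 0.154% called in WT and 1.31% in KO, had 1 and 0. At E12.5 the C1qa knock-out effect was 1.34 higher in ovary than in testis (SE 0.49, limma adjusted p = 0.627) and that of Tyrobp was 1.44 higher (SE 0.64, limma adjusted p = 0.804). For Tyrobp this difference was 0.83 without KO ovary E12.5 replicate 1 and 1.78 without the 3 arrays of high 3′ to 5′ ratio (limma adjusted p = 0.988 and 0.489).

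Across the 16 arrays most of these genes ran together. Each gene's log2 values were set against the mean of the other 9, each standardised, as a description over arrays that share groups, tissue makeup and RNA quality. Pearson's r was 0.81 for C1qa and Csf1r, 0.79 for C1qc, 0.77 for Fcer1g and Tyrobp, 0.64 for Cx3cr1, 0.57 for C1qb and 0.52 for Mrc1. Cd68 had 0.29 and Ctss 0.08. Without KO ovary E12.5 replicate 1, Ctss had 0.50 and Cd68 0.48, while C1qb had 0.41, so the low value of Ctss rested on that array, where it read 108. Between replicates, 0 of the 10 genes were higher in replicate 1 than in replicate 2 in WT ovary E12.5 and in KO ovary E14.5, beside 39.5% and 40.2% of all genes. In KO ovary E12.5 and KO testis E12.5 the count was 8 of 10, beside 55.5% and 55.2%. In WT ovary E14.5 it was 7, in both WT testis groups 6 and in KO testis E14.5 5, beside 47.8% to 61.6% of all genes.

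Among genes outside the 10, those whose log2 values followed their mean most closely over the 16 arrays were Twist2 at r = 0.94, Ttc3, Hmox2, Tspyl5, Ifi30, Ubxn4, Tmem51, Srbd1, Syn2 and, at 0.90, Rhoq. Without KO ovary E12.5 replicate 1 the 10 values lay between 0.86 and 0.93. This is a likeness of levels over arrays only.

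**Figure D4:**
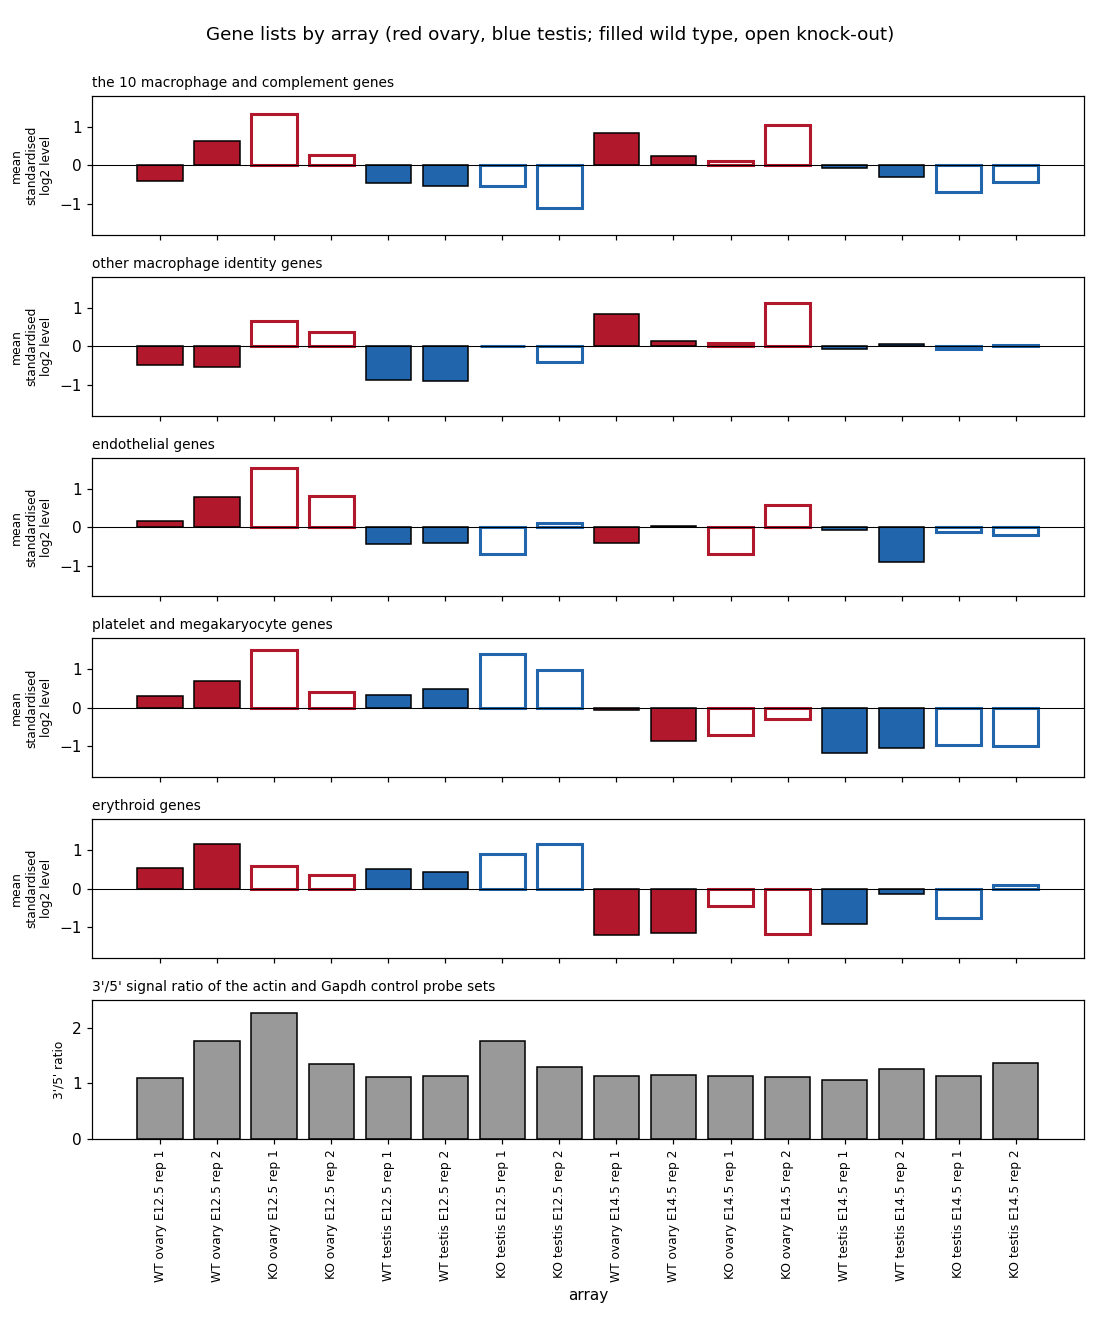
Mean standardised log2 level (bars from 0) on each of the 16 arrays of the 10 genes, of other macrophage, endothelial, platelet and erythroid genes, and in the lowest panel the 3′ to 5′ signal ratio, with red for ovary, blue for testis, filled for wild type and open for knock-out. The 10 genes reach 1.33 in KO ovary E12.5 replicate 1, where the ratio is 2.27, and are lowest, at -1.11, in KO testis E12.5 replicate 2, where it is 1.29.

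Other genes of macrophages were partly out of reach of the arrays. Of the further identity genes 17 were tested and 7 did not pass the filter. The 7 below the filter were Itgam, Itgb2, Spi1, Trem2, Cd14, C5ar1 and P2ry12, of which Spi1 encodes PU.1 and Itgam and Itgb2 the integrin CR3. Among the 17, 5 rose and 0 fell with stage on average, where 13% of all genes were called as higher, and the median was 0.22, beside -0.03 over all genes. The lysozyme gene Lyz2 rose by 0.85 (SE 0.16, limma adjusted p = 0.00146), from 23.0 to 47.3 on E12.5 arrays to 34.98 to 123 on E14.5 arrays, and Lyz1 rose by 0.76 (SE 0.17, adjusted p = 0.00473). The Lyz1 probe set is of the type whose probes can bind other transcripts, so it may not read Lyz1 alone. Cd53, a leukocyte tetraspanin, rose by 0.49 (limma adjusted p = 0.00964), the inhibitory Fc receptor gene Fcgr2b by 0.22 (adjusted p = 0.0358), and Coro1a, named after its values were seen, by 0.41 (adjusted p = 0.046). Fcgr2b was near the array medians of 9.28 to 10.4, at 6.46 to 9.86 on E12.5 arrays and 8.96 to 11.1 on E14.5 arrays, which overlapped.

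Between the sexes 1 of the 17 identity genes was higher in testis and 0 were lower, where 11.2% of all genes were called and 5.87% as lower. Of the 17 values 14 were below 0, beside 56.9% of all genes, with a median of -0.25 beside -0.04 over all genes. The gene that was higher was Irf8, a transcription factor of monocytes, macrophages and dendritic cells. It read 12.2 to 31.0 on ovary arrays and 16.5 to 74.0 on testis arrays, a log2 difference of 0.68 (SE 0.13, limma adjusted p = 0.00394), and in the KO at E14.5 it read 12.2 and 20.5 in ovary and 74.0 and 47.9 in testis (1.67, SE 0.26, adjusted p = 0.00161). Irf8 was also the 1 identity gene that was higher in the knock-out on average, by 0.59 (SE 0.13, limma adjusted p = 0.0384), where 1.43% of all genes were called. At E12.5 the sexes were close, at 14.2 and 16.4 in WT ovary, 17.5 and 16.5 in WT testis, 30.1 and 31.0 in KO ovary, and 33.5 and 28.5 in KO testis. In WT at E14.5 it read 13.2 and 18.9 in ovary, level with the KO ovary, and 35.9 and 31.4 in testis. In ovary E12.5 the knock-out called 0 of 17, with 5 at an unadjusted p under 0.05, 16 of 17 values above 0 and a median of 0.44, where 0.292% of all genes were called, 54.9% were above 0 and the median was 0.03.

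Of the ligands of the receptors, Csf1 and Cx3cl1 were tested. Csf1 ran from 22.4 to 60.6 and Cx3cl1 from 13.2 to 39.8 over the 16 arrays, and the highest array of both was KO ovary E12.5 replicate 1. Neither was called in any comparison of 2 groups or average, and in KO against WT ovary E12.5 their changes were 0.50 (SE 0.27) and 0.52 (SE 0.39), with limma adjusted p of 0.68 and 0.771. Il34 did not pass the filter.

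Of 24 other complement genes 12 were tested, 6 did not pass the filter and 6 were not named by a probe set of their own. With stage 6 of the 12 rose and 1 fell on average, where 26.5% of all genes were called and 13% as higher, and the median was 0.30, beside -0.03 over all genes. C1s1 and C1ra, which encode the proteases that C1q activates, rose by 1.51 (SE 0.17, limma adjusted p = 3.44e-05) and 0.83 (SE 0.11, adjusted p = 0.000155). C1s1 went from 17.1 to 49.6 on E12.5 arrays to 46.8 to 171 on E14.5 arrays. Clu, an inhibitor of the terminal complex that Sertoli cells also make, rose by 1.105 (limma adjusted p = 1.12e-05), and Cfi, a protease that inactivates C3b and C4b, by 0.46 (adjusted p = 0.00609). Cfp, the properdin gene, fell by 0.96 (limma adjusted p = 0.0087) and was named after its values were seen.

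Between the sexes Clu was higher in testis by 1.29 (SE 0.11, limma adjusted p = 1.3e-05), from 849 to 2906 in ovary to 1738 to 6568 in testis. Serping1, the inhibitor of C1r and C1s, fell in testis by 0.46 (SE 0.12, limma adjusted p = 0.0268). Averaged over sexes and stages the knock-out comparison called 1 of 12 complement genes, beside 1.43% of all genes. This was the membrane regulator gene Cd55, which rose by 1.02 (SE 0.16, limma adjusted p = 0.00576), from 43.3 to 103.6 on WT arrays to 99.0 to 182 on KO arrays.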

How the data were processed

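RNA of 16 embryonic gonad samples, 8 µg each per the labels' protocols, was hybridised to Affymetrix Mouse430_2 arrays, and the authors deposited 1 linear intensity per probe set and array, made with MAS5 per the submitters' processing notes; which version and scaling is not given in the sources used here. Array means were 269.6 to 285 and medians 9.28 to 10.4, and no further scaling was applied. Gene names come from the platform annotation: 34945 probe sets had 1 symbol, 932 several and 9160 none. Symbols were updated through Entrez numbers, which were found for 34741.

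Here log2(intensity + 4) was taken, where 4 is close to the 20th percentile of an array (median 4.15). Without the 64 control probe sets, 25620 probe sets above the array median on at least 2 arrays were kept, and the one with the highest mean stood for its gene. limma 3.58.1 in R 4.3.3 fitted all 16 arrays and 8 group means (residual df 8, prior df 5.29, intensity trend). Tests were two-sided, p-values were adjusted by Benjamini-Hochberg over 12336 genes, the threshold was 0.05 and intervals are 95%. Code was tested on simulated data. Figures used Python 3.11.15, pandas 2.3.3 and matplotlib 3.10.9. The share of opposite-sex RNA was the signal of Eif2s3y, Kdm5d and Uty on ovary arrays, or of Xist on testis arrays, above the lowest array of that sex and stage, relative to the mean of the other sex.

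The 10 genes and the lists were chosen with earlier results of these data known. Named were the 10 genes, the ligands, up to 4 called genes per list by smallest p and the 10 genes most alike. Alternatives were the pseudocount, filter, quantile normalization, variance trend, array weights, probe set summary, threshold, covariates, arrays left out, and the replicate number as a block. Same-numbered arrays deviated together (correlation above 0.1) in 7 of 28 pairs of groups, so the number was not taken as a pairing. The correlations ran from -0.66, between WT and KO ovary E12.5, to 0.58, between WT and KO testis E14.5, so some groups did share array-level deviations.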

Additional observations from a re-analysis of the deposited data

Results flagged for a closer look

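The knock-out effect on C1qa at E12.5 had opposite signs in the sexes, since both KO arrays were above both WT arrays in ovary and below them in testis. The effect in ovary minus that in testis was 1.34 on the log2 scale (SE 0.49), and the test of this difference did not pass (limma, unadjusted p = 0.0166, adjusted p = 0.627).

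C1qc had the same split at E12.5, with a difference of 0.81 (SE 0.41) that did not pass (limma, unadjusted p = 0.069, adjusted p = 0.863). KO ovary E12.5 replicate 1 contributed to both, and without it the differences were 1.07 for C1qa and 0.42 for C1qc.

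Mrc1 in testis had KO arrays above the WT arrays at E12.5 and below them at E14.5. The knock-out effect at E14.5 minus that at E12.5 was -1.24 (SE 0.36) and did not pass (limma, unadjusted p = 0.00397, adjusted p = 0.984). The WT testis E12.5 arrays in this difference are the almost identical pair.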

How the results depend on the processing

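Of the called genes, Ctss by stage and C1qa by average sex difference kept their calls in all 32 settings, and no called value changed sign. Counts of called genes moved as follows, and the cause was not tested. For the average sex difference the count of 3 became 1 with every probe set tested on its own or the WT testis E12.5 arrays averaged, 5 with the 3′ to 5′ ratio or the opposite-sex share as a covariate, 6 at an adjusted p under 0.1, and 1 to 7 with single arrays left out, 7 being without WT ovary E12.5 replicate 1. For the average stage difference 2 became 1 without a filter, with quantile normalization, every probe set, the averaged arrays, the 3′ to 5′ covariate or without the 3 arrays of high ratio, and 1 to 2 with single arrays left out. For stage in WT testis 1 became 0 with a pseudocount of 16, no filter, quantile normalization, every probe set, the averaged arrays or the opposite-sex covariate, 3 with array weights, 2 with only the 4 arrays, and 0 with any single array left out. With the replicate number as a block it was also 0, the 1 count that moved under the block, and the numbers are not taken as a pairing. For sex in KO E12.5, 1 became 0 with array weights, every probe set, only the 4 arrays or without the 3 arrays, 5 with the opposite-sex covariate, and 0 to 6 with single arrays left out. Counts of 0 became 1 for stage in KO ovary (no variance trend, adjusted p under 0.1, opposite-sex covariate; 0 to 2 with single arrays left out), 1 for stage in KO testis (opposite-sex covariate), 1 for sex in WT E14.5 (without the 3 arrays), and for sex in KO E14.5 2 (array weights, 3′ to 5′ covariate) or 1 (only the 4 arrays, without the 3 arrays). Knock-out counts and those of differences between differences were 0 in every setting. The settings without the 3 arrays, with the opposite-sex covariate and with the mRNA probe sets of Csf1r and C1qb were chosen after seeing the data. Cd68 and C1qc lay closest to the array median, where small signals limit what 2 arrays a group can show.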

Other observations

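Scavenger and lysosome genes linked to fetal tissue macrophages, of which 12 of 16 were tested, differed with stage, with 6 higher and 2 lower at E14.5 on average and a median log2 change of 0.38, where 26.5% of all genes were called, 13% as higher, and the median was -0.03. Gas6, a bridge between dying cells and their uptake receptors, rose by 1.45 (SE 0.08, limma adjusted p = 3.14e-08), from 260 to 441 on E12.5 arrays to 687 to 1450 on E14.5 arrays, which did not overlap. The cathepsin genes Ctsl and Ctsd rose by 0.49 (SE 0.07, limma adjusted p = 0.000166) and 0.40 (SE 0.09, adjusted p = 0.004), while the scavenger receptor gene Stab1 fell by 0.84 (SE 0.18, limma adjusted p = 0.00448). The other gene that fell was Pf4, which is also on the platelet list and is given below. Between the sexes Lyve1, a hyaluronan receptor of some macrophages and of lymphatic vessels, fell in testis by 0.75 (SE 0.15, limma adjusted p = 0.00678), from 57.2 to 102.3 on ovary arrays to 23.2 to 77.4 on testis arrays. Many of these genes are also made by other cells of the gonad.

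Among other blood cells, 4 of 4 platelet genes tested fell with stage on average, where 26.5% of all genes were called in either direction. Their median was -0.74, and Pf4 fell by 1.14 (SE 0.19, limma adjusted p = 0.000643). Pf4 is also counted among the scavenger genes above. Of 4 mast cell genes tested Cpa3 rose by 1.04 (SE 0.28, limma adjusted p = 0.0156) and Kit, which germ cells also express, fell by 1.42 (SE 0.17, adjusted p = 4.2e-05). Cpa3 read 3.40 to 5.86 on E12.5 arrays, below the array medians. At E14.5 it read 9.45 to 75.7 on ovary arrays, highest in WT ovary replicate 1, and 4.81 to 12.3 on testis arrays. Hdc, which makes histamine, fell in the knock-out on average by 0.61 (SE 0.10, limma adjusted p = 0.00964). In WT ovary E12.5 Hdc read 25.3 and 27.7, where Cpa3 read 3.80 and 4.99. Which cells the Hdc signal came from was not tested. The granulocyte gene S100a8 rose with stage by 1.34 (SE 0.46, limma adjusted p = 0.0477), from 19.2 to 396 on E12.5 arrays to 112 to 863 on E14.5 arrays. These ranges overlapped, and replicates could lie far apart, at 174 and 19.2 in KO testis E12.5. In the average knock-out comparison 6 of 6 monocyte and granulocyte genes tested had values above 0, with a median of 0.75. Of these 0 were called by limma (2 at an unadjusted p under 0.05), where 1.43% of all genes were called, 60.2% were above 0 and the median was 0.03. None of 10 lymphoid genes was tested, 8 being below the filter.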
